A study of Mus musculus with 24 samples.

Results

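The genes of the NMDA receptor subunits measured here were Grin1, Grin2a, Grin2b, Grin2c, Grin2d and Grin3a, 6 of the 54235 features in the count tables. They were taken by their symbols as a family, with no threshold on measured values, although the set was picked with earlier results of these data known. Their levels were described in every cell class of mouse motor cortex and dorsal striatum, with attention to the share of Grin2a beside Grin2b, to Grin2c in astrocytes and to Grin2d in interneurons. The further subunit gene Grin3b was not a member and had 163 molecules in all kept cells.

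Single-cell 3' RNA libraries came from mice in which the Cre recombinase CreER is made from an activity-dependent gene and can be switched on with 4-hydroxytamoxifen (4-OHT), so that active neurons permanently turn on the red fluorescent reporter Ai9. Motor cortex came from Fos-CreER::Ai9 mice and dorsal striatum from Arc-CreER::Ai9 mice, so region and driver line cannot be told apart. Early mice were trained to reach with a forelimb for 2 days and late mice for 8 days, and control mice received 4-OHT but no training. All groups carried the reporter and received 4-OHT, and tissue was taken 3 days after labelling. Each of the 24 libraries held 1 hemisphere pooled from 2 mice (contralateral and ipsilateral in trained mice, left and right in controls), so that every region and stage had 2 pools of mice (12 in all). Pools serve as the replicates, because both hemispheres of a pool come from the same mice. Of these libraries 23 entered the fits. Control replicate 1 of the striatum is represented by its left hemisphere, the right one being not analysed here.

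Total unique molecular identifiers (UMIs, each a counted RNA molecule) ranged from 5260446 to 30470621 per library. After filtering, 47985 motor cortex and 50627 dorsal striatum cells remained. Libraries kept between 467 and 6606 cells. Median depth per library was 2048 to 5725 UMIs over the cells that passed the filters, before presumed doublets were removed. The labels name 2 versions of the library kit without saying which library used which. The rate of shared cell barcodes divided the pools into 4 of class A, namely control replicate 1 and late replicate 1 of both regions, and 8 of class B, which include all early pools. These classes are called kit classes here, but the kit of a library is inferred. In each region class A is also a single labelled sequencing batch, so kit and batch cannot be told apart there. Cells were clustered without the 6 genes, Grin3b, Grin1os and the reporter, and classes were named by marker genes, so each name stands for cells like that type (neuron-like, astrocyte-like and so on). In marker checks, 7 of 7 glutamatergic markers, 10 of 11 interneuron markers and 9 of 9 astrocyte markers were highest in their own class in motor cortex. In striatum this held for 7 of 11 spiny neuron, 8 of 11 interneuron, 7 of 7 cholinergic and 8 of 9 astrocyte markers. These are the markers that named the classes, so the counts describe the classes and do not test their names. The striatal late replicate 1 pool stood apart in its non-neuronal classes. Grin1, for example, was at 111 CPM (counts scaled to 1000000 UMIs of the same cells) in its endothelial-like cells against 0 to 19.4 in the other 5 pools.

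NMDA receptors in their common form are glutamate-gated cation channels. They open only when glutamate and a co-agonist, glycine or D-serine, are bound and depolarisation has removed a magnesium block. They admit calcium and are known for their part in synaptic plasticity. Each receptor contains the GluN1 subunit made from Grin1 and GluN2 or GluN3 subunits made from the other genes. GluN2A and GluN2B are the main GluN2 subunits of the adult forebrain, GluN2C and GluN2D give receptors with a weaker magnesium block, and GluN3A lowers calcium entry.

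All 6 genes are protein-coding and on the minus strand of GRCm38 (GENCODE M21). Grin1 (ENSMUSG00000026959) spans chromosome 2, 25291181 to 25319187, and had 91198 UMIs in 35327 kept cells. Grin2a (ENSMUSG00000059003) lies on chromosome 16, 9567898 to 9995560, with 88369 UMIs in 30776 cells. Grin2b (ENSMUSG00000030209) lies on chromosome 6, 135713233 to 136173511, and was the most counted member with 179548 UMIs in 42237 cells. Grin2c (ENSMUSG00000020734) on chromosome 11, 115249169 to 115267243, had 5921 UMIs in 3409 cells. Grin2d (ENSMUSG00000002771) on chromosome 7, 45831883 to 45878378, was counted least, with 2890 UMIs in 2360 cells. Grin3a (ENSMUSG00000039579) on chromosome 4, 49661611 to 49845744, had 14387 UMIs in 7916 cells. Grin1 overlaps the antisense gene Grin1os by 7706 bases and Grin2d overlaps Kdelr1 on the other strand by 5607 bases. Grin2b overlaps the non-coding genes Gm14329 and Gm14330 on the other strand by 11442 and 9288 bases. Whether the counting used strand is not given in the sources used here, so reads of such pairs may not be told apart. Grin3a holds Ppp3r2 on its own strand over 3278 bases.

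Promoters are shown for Grin2c, highest in astrocytes, and for Grin2d, highest in interneurons and lower in oligodendrocyte precursors. Grin3a was also high in few classes but had no matched promoter. RefSeq promoters (GRCm38.p6) matched 3 of the 6 genes, Grin1, Grin2c and Grin2d. The 250 bases before the start site are printed 5′ to 3′ on the gene's strand, with capitals marking the GC box (letters GGGCGG, or CCGCCC for the other strand), a motif found in 32.7% of 32851 promoters of this length. The Grin2c window lies at chr11:115267244-115267493, minus strand, and the Grin2d window at chr7:45866682-45866931, minus strand, within the annotated span of that gene.
Grin2c: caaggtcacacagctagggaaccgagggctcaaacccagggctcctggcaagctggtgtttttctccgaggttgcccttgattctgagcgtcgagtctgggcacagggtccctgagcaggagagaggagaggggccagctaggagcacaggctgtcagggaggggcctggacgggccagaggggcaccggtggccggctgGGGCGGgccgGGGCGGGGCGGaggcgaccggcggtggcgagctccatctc
Grin2d: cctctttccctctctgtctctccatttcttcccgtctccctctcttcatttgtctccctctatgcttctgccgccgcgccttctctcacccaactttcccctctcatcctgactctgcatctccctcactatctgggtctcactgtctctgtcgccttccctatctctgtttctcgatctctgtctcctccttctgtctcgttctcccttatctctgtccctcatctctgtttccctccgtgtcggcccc
The Grin2c window held 3 GC boxes, all on the gene's strand, and was 68.8% G or C. The Grin2d window held 0 and was 54.4% G or C, beside a median of 52.4% over all promoters. The Grin1 window (58.8% G or C) also held 0. A match is a description of these letters and says nothing of any factor's binding.

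Grin1, the obligatory subunit gene, was highest in the projection neurons of both regions. Values are CPM of the summed UMIs of a pool, given as mean ± SD over pools (n = 6 pools of a region unless stated). As 3' libraries count each transcript at its end, levels are compared between cells for 1 gene and not between genes. Motor cortex glutamatergic neurons were at 294 ± 58.8 CPM, with the lowest, median and highest pool at 234, 286 and 369.5, and spiny projection neurons of the striatum were at 314 ± 53.5 (246, 327 and 387). Eccentric spiny neurons, a small spiny class marked by Otof and Casz1, were at 294 ± 71.0, and cortical GABAergic interneurons at 210.1 ± 40.7. Striatal GABAergic interneurons (155 ± 30.9) and cholinergic interneurons (95.7 ± 20.8) came next, and the ranges of these 2 classes overlapped. Both cortical neuron classes lay above every non-neuronal class without overlap. In striatum the cholinergic range was reached by endothelial, mural and fibroblast-like cells, by late replicate 1 in the former pair (111 and 95.4 CPM).

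Oligodendrocyte precursors had Grin1 at 21.6 ± 4.03 CPM in cortex and 21.8 ± 9.27 in striatum (late replicate 1 at 39.4), the highest mean outside neurons in cortex but not in striatum. Microglia, which are not known for NMDA receptors, stood at 7.05 and 7.66 CPM and serve as the background, since free RNA gives UMIs in cells that do not express a gene. After thinning each cell to 1000 UMIs, Grin1 was found in 27.7% of cortical glutamatergic neurons and in 0.669% of cortical microglia, at pool median depths of 5281 to 12992 and 1336 to 2746 UMIs before thinning. Astrocytes of both regions (4.69 and 4.97 CPM) lay at or under the microglial level. Within the cortex, Grin1 ran by subtype from 336 ± 78.4 in layer 2/3 neurons to 190.5 ± 40.4 in Vip interneurons, and every neighbouring pair in that order overlapped. In the striatum the order had gaps, with D1 and D2 spiny neurons (315 and 314) above Pvalb interneurons (202 ± 32.7) and these above Sst interneurons (104 ± 27.0).

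Grin2a, which encodes the subunit of faster-closing receptors that becomes more abundant as the forebrain matures, was highest in eccentric spiny neurons of striatum (355 ± 132 CPM) and in glutamatergic neurons of cortex (339.5 ± 66.2; lowest, median and highest pool 239.6, 354 and 414). Cortical GABAergic interneurons were at 246 ± 61.6, spiny projection neurons at 217 ± 64.4 and striatal GABAergic interneurons at 96.9 ± 36.0. Each of these neighbours within a region overlapped in range. By subtype, layer 2/3 (474 ± 87.4) and Lamp5 interneurons (436 ± 112) led, and layer 6b (123 ± 35.5) and Vip interneurons (105 ± 33.1) were lowest among cortical neurons.

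Cholinergic interneurons of the striatum were nearly without Grin2a. In their 229 cells only 5 Grin2a UMIs were counted (1 in control replicate 1, 1 in late replicate 1, 3 in late replicate 2 and 0 in the other 3 pools), a mean of 1.26 ± 1.67 CPM, below the 3.55 CPM of microglia. Grin2b was present in the same cells at 267 ± 75.0 CPM (164, 272 and 369.9), and Grin1 at 95.7. These cells were deep, with pool medians from 11686 to 25243.5 UMIs, deeper than the microglia with which they are compared.

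Grin2b, whose subunit gives slower-closing receptors and is abundant early in life, was highest in striatal spiny projection neurons, at 676 ± 154 CPM (414, 733 and 832). Cortical glutamatergic neurons were at 566 ± 41.3 (489, 577 and 601) and overlapped with cortical interneurons at 459 ± 35.8. In striatum, eccentric spiny neurons were at 433 ± 77.2, cholinergic at 267 and GABAergic interneurons at 204 ± 34.0, with overlap between neighbours. Layer 2/3 neurons (816 ± 76.4) had all 6 pools above those of the next subtype, layer 6 intratelencephalic neurons (586 ± 50.3). From there the cortical subtypes ran down to 412 (layer 5 near-projecting), and neighbours overlapped. Outside mature neurons, Grin2b stood at 53.4 ± 17.9 CPM in striatal neuroblasts or progenitors and at 40.9 ± 6.88 and 32.7 ± 15.2 in astrocytes of cortex and striatum, beside 8.32 and 9.71 in microglia. Fibroblasts of cortex and striatum had means of 39.0 and 47.3 CPM, endothelial cells 23.4 and 30.8, and striatal mural cells 41.5, but with wide ranges. Striatal mural pools ran from 7.58 to 38.2 apart from late replicate 1 at 147, and the highest endothelial pools were at 96.7 in cortex and 118 in striatum.

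**Figure D1:**
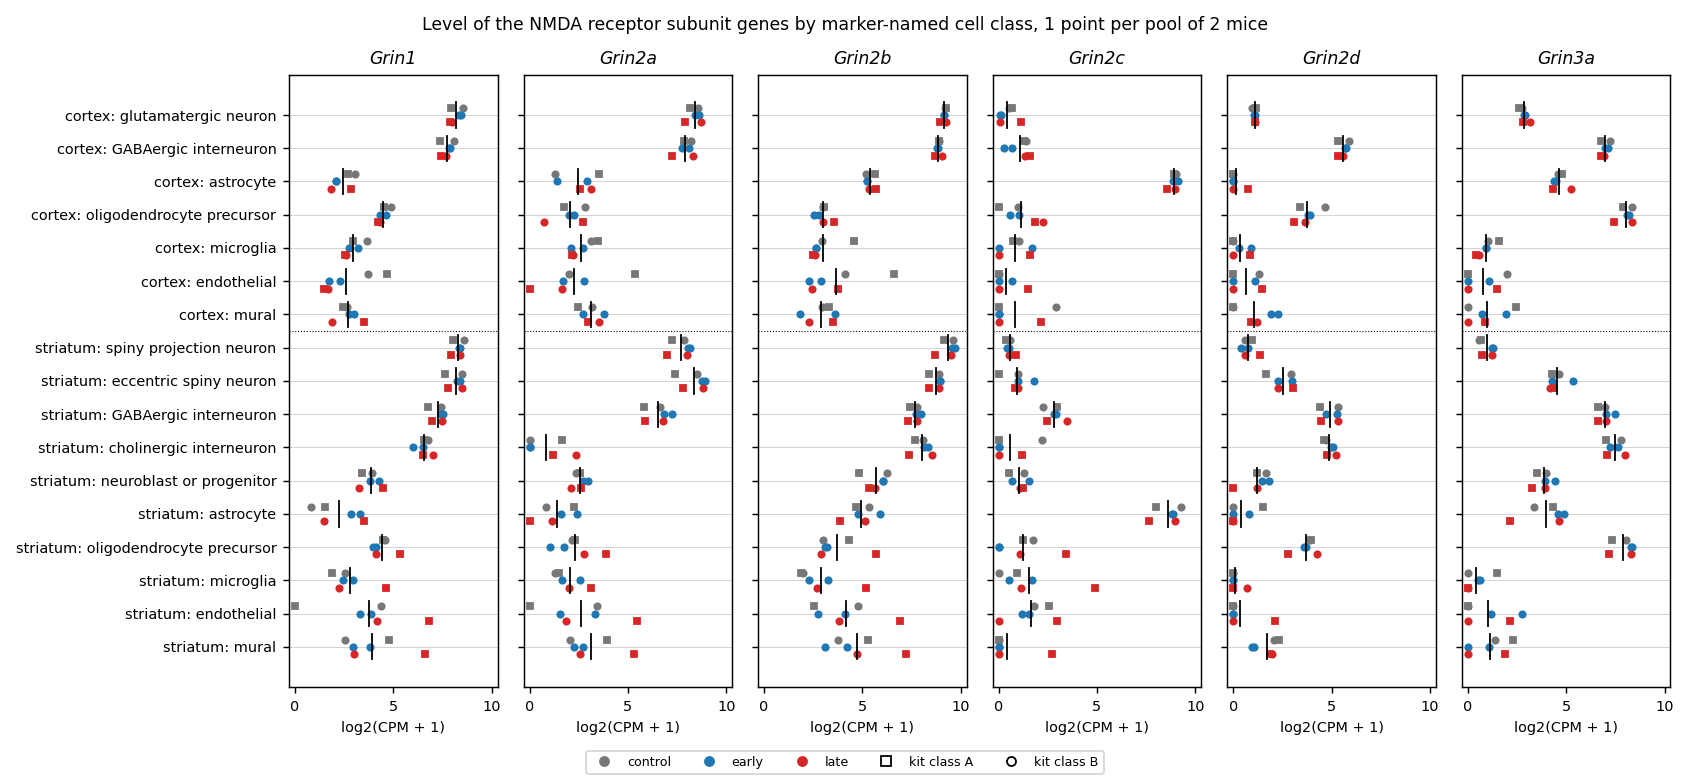
Level of each subunit gene by cell class, as log2(CPM + 1) on the x axis, with 1 point per pool (colour for stage, shape for kit class) and a vertical line at the mean of the plotted values. Grin1 and Grin2b are high in neurons, as is Grin2a in all neuron classes but cholinergic interneurons, Grin2c in astrocytes of both regions, Grin2d in interneurons, and Grin3a in oligodendrocyte precursors and interneurons, while the class A pool of late striatum stands apart in several non-neuronal rows.

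Grin2c was an astrocyte gene in both regions. Cortical astrocytes were at 480.5 ± 61.2 CPM (372, 490.4 and 554) and striatal astrocytes at 412 ± 157 (196, 456 and 614). All other cortical classes had means of 1.68 CPM or less, and in glutamatergic neurons the mean was 0.401. In striatum the next class, GABAergic interneurons, was at 6.29 ± 2.22, and microglia had a median of 1.06 with their highest pool, late replicate 1, at 29.2. In thinned cells, Grin2c was found in 37.2% of cortical and 30.4% of striatal astrocytes against 0.0804% and 0.495% of microglia. Among striatal astrocyte pools the 2 of class A, which are also 1 batch, were lowest and averaged 225 CPM, and the class B pools averaged 505. In cortex the averages were 425 and 508. With a stricter filter on cells, the cortical mean was 375.9 CPM.

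Grin2d, known from interneurons and from early development, was highest in GABAergic interneurons of cortex (47.5 ± 7.19 CPM; 39.4, 48.4 and 58.0) and in GABAergic (30.4 ± 8.93; 20.6, 31.6 and 39.0) and cholinergic (29.0 ± 5.0) interneurons of striatum. The 2 striatal classes overlapped, and both lay above oligodendrocyte precursors (12.7 ± 4.15). Projection neurons had little, with 1.13 CPM in cortical glutamatergic and 0.745 in spiny projection neurons, while microglia were at 0.323 and 0.103. Among spiny classes the eccentric neurons stood higher, at 5.13 ± 2.07. In the cortex Lamp5 interneurons led with 64.7 ± 9.52 CPM, and their 6 pools lay above the 5 Pvalb pools (46.6 ± 3.72, n = 5). Vip (43.0 ± 8.54) and Sst (34.2 ± 9.73) interneurons followed with overlapping ranges. Striatal Pvalb (31.8 ± 11.0) and Sst (28.4 ± 7.96) interneurons overlapped with each other. At this depth Grin2d was seen in 4.60% of thinned cortical interneurons.

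Grin3a was highest in a class outside the neurons. Oligodendrocyte precursors, the dividing cells that give rise to myelin-forming cells, were at 270.2 ± 59.1 CPM in cortex (174, 279 and 328) and 252 ± 82.2 in striatum (144, 284 and 328). In cortex their 6 pools lay above those of GABAergic interneurons (125 ± 16.4). In striatum they overlapped with cholinergic interneurons (182 ± 50.5), which overlapped with GABAergic interneurons (126 ± 29.2). Projection neurons had 6.24 CPM in cortex and 0.986 in striatum, and eccentric spiny neurons 22.9 ± 8.39, with early replicate 1 at 39.4 and the others at 17.0 to 23.7.

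By subtype, Grin3a separated the interneurons of cortex. Sst interneurons of cortex reached 353 ± 50.2 CPM, with all 6 pools above those of Vip (118 ± 15.1), and all Vip pools lay above Lamp5 (56.3 ± 13.4). Pvalb interneurons of cortex were at 11.9 ± 14.5 (n = 5) and those of striatum at 4.55 ± 3.15, against 213 ± 55.5 in striatal Sst interneurons. Among glutamatergic subtypes the layer 5 near-projecting neurons stood out at 36.8 ± 4.03, and the others lay between 2.14 (layer 6 corticothalamic) and 11.7 (layer 6b). Oligodendrocyte precursors thus combined Grin3a with Grin2d at 13.3 CPM and Grin1 at 21.6 in cortex, while their Grin2a and Grin2b (3.59 and 7.07) did not rise above the microglial means. In striatum, precursor Grin2b was at 16.5 ± 17.7 CPM with late replicate 1 at 51.3, against 9.71 in microglia, whose late replicate 1 was at 34.8.

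**Figure D2:**
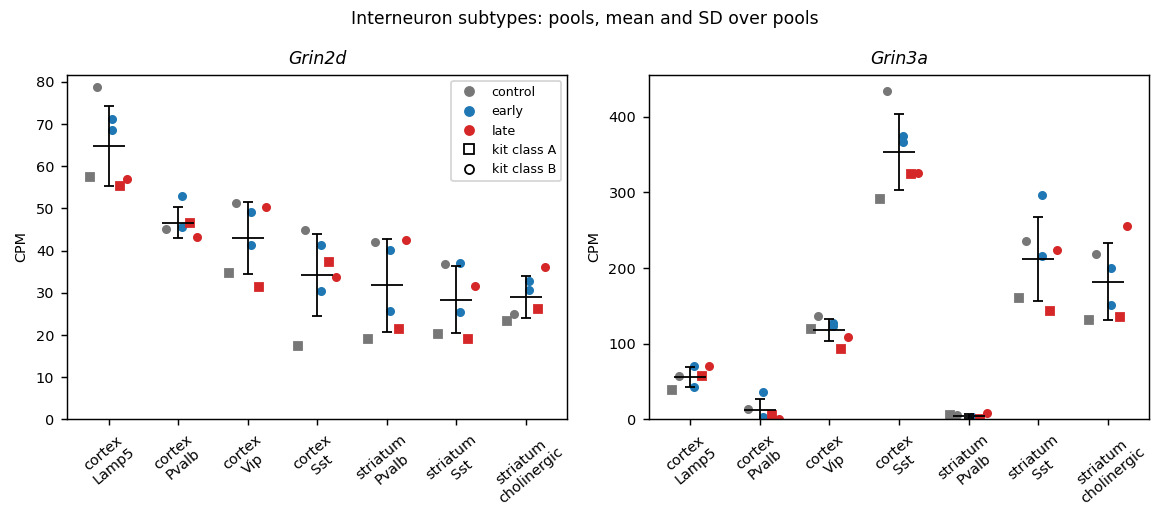
Grin2d (left) and Grin3a (right) in interneuron subtypes of cortex and striatum, in CPM on a linear axis from 0, with 1 point per pool and bars for mean and SD over pools (5 pools for cortical Pvalb, 6 otherwise). Grin2d is present in every subtype, whereas Grin3a is high in Sst, cholinergic and Vip interneurons and near 0 in Pvalb interneurons of both regions.

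The mix of Grin2a and Grin2b was expressed as the percentage of Grin2a among the UMIs of both genes. It averaged 37.2 ± 3.67% in cortical glutamatergic neurons, 34.4 ± 4.75% in cortical GABAergic interneurons, 43.7 ± 6.26% in eccentric spiny neurons, 31.3 ± 5.08% in striatal GABAergic interneurons and 24.1 ± 2.21% in spiny projection neurons (SD, n = 6 each). Grin2b UMIs therefore outnumbered Grin2a UMIs in each of these classes. Because the 2 genes differ in their 3' ends, the percentage is read between cells and not as a ratio of subunits. Cholinergic interneurons stood at 0.484 ± 0.543% and striatal neuroblasts or progenitors at 9.19 ± 3.58%. In the order of striatal classes, spiny projection neurons, neuroblasts and cholinergic interneurons did not overlap, and all other neighbours did. The percentages of the last 2 rest on Grin2a near or below its level in striatal microglia (3.55 CPM). Grin2a was at 4.94 CPM in neuroblasts or progenitors and at 1.26 in cholinergic interneurons.

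Within cortex, the Grin2a percentage ran from 45.8 ± 5.86% in Lamp5 and 45.7 ± 7.75% in layer 5 near-projecting neurons through 41.1 ± 4.79% in layer 4/5 Rorb neurons to 21.3 ± 3.90% in layer 6b and 18.8 ± 3.98% in Vip interneurons. Layer 2/3 (36.5 ± 2.65%), layer 6 intratelencephalic (36.2 ± 3.72%) and layer 6 corticothalamic neurons (36.0 ± 5.35%) were close to one another, although their absolute levels differed. Sst (33.0 ± 3.17%) and Pvalb (27.6 ± 6.96%, n = 5) interneurons overlapped. In striatum, D1 (23.1 ± 2.76%) and D2 (23.9 ± 2.18%) spiny neurons overlapped, and eccentric neurons lay above both in every pool. Striatal Sst interneurons were at 37.7 ± 5.22% and Pvalb interneurons at 29.4 ± 5.35%.

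The mix differed between the barcode classes, in which kit and batch cannot be told apart. Class A pools averaged 32.7% in cortical glutamatergic neurons and class B pools 39.5%, and the values were 22.0% and 25.1% in spiny projection neurons and 36.6% and 47.3% in eccentric neurons. Stages were therefore set side by side within class B, where control has 1 pool, early 2 and late 1, and where the pools come from more than 1 labelled batch. Cortical glutamatergic neurons had 39.2% in control, 38.9% in early and 40.8% in late class B pools. Spiny projection neurons had 23.0%, 25.6% and 26.3%, and eccentric neurons 43.1%, 48.4% and 49.1%. Within a labelled batch, the percentage in spiny projection neurons was 20.5 in control replicate 1 and 23.5 in late replicate 1, and 23.0 in control replicate 2 and 25.25 in early replicate 1. In eccentric neurons these pairs were 33.6 and 39.5, and 43.1 and 49.5. The trained pool was the higher one in both pairs of both classes. Cortical glutamatergic neurons had 32.5 and 32.9 in the former pair and 39.2 and 37.4 in the latter, so the direction differed between the pairs. These percentages are given as a description, and no test of them between stages was run. An exact permutation test of 2 pools against 2 cannot give a p below 0.333, two-sided.

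**Figure D3:**
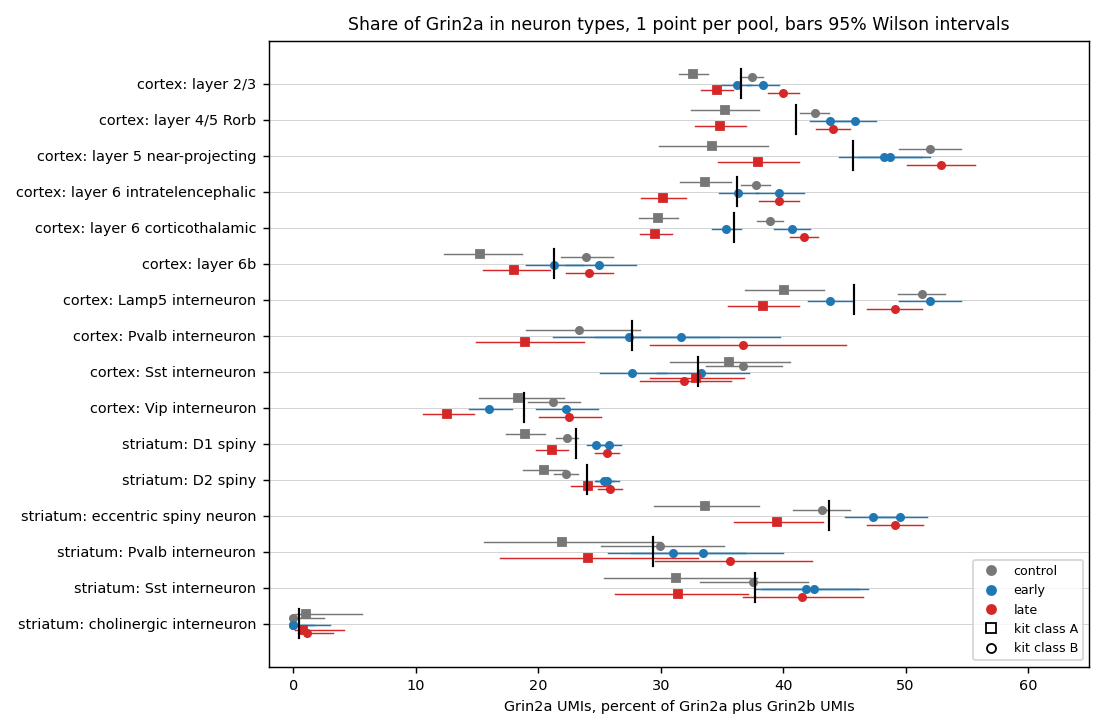
Grin2a UMIs as a percent of Grin2a plus Grin2b UMIs in each neuron subtype, with 1 point per pool, horizontal bars for the 95% Wilson interval (counting error only) and a vertical line at the mean of the pools. Lamp5, layer 5 near-projecting and eccentric spiny neurons have the highest means (43.7 to 45.8%), Vip and layer 6b neurons the lowest of cortex (18.8 and 21.3%), cholinergic interneurons are near 0, and the squares of kit class A lie to the left of the circles in most rows.

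Interneurons held 5 of the 6 calls of members between the regions. In cortical GABAergic interneurons, Grin2b had pools from 412 to 519 CPM and in striatal ones from 159 to 250.2, with no overlap. Grin2a ranged from 148.8 to 319.8 and from 54.4 to 148.6, so that the highest striatal pool lay just under the lowest cortical one, which is of class A. With stage and kit class in the fit, motor cortex minus dorsal striatum, edgeR gave a log2 difference of 1.06 for Grin2b (SE 0.0909, adjusted p 3.57e-08) and 1.26 for Grin2a (SE 0.137, adjusted p 7.81e-07). The difference was 0.55 for Grin2d (SE 0.114, adjusted p 0.00102) and 0.33 for Grin1 (SE 0.0893, adjusted p 0.00776), of which the Grin1 call was lost without kit class (adjusted p 0.106). Grin3a differed by -0.12 (SE 0.0940, edgeR adjusted p 0.363) and was not called. All genes of these interneurons set the background, of which 34.1% were called between regions.

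Pools of both regions that share a labelled sequencing batch allow the same comparison inside a batch. In early replicate 2, Grin2b was at 439 CPM in cortical and 209 in striatal interneurons, and in late replicate 2 at 519 and 217. Grin2a was at 269.6 and 114 in the former pair and at 319.8 and 109 in the latter. Grin2d was at 49.5 and 25.5, and at 47.3 and 39.0. The cortical pool was the higher one in each of these 6 pairs of values. A fit with the labelled batch in place of kit class, chosen after seeing the data, takes the region difference from these 2 shared batches alone. In it, Grin2b differed by 1.06 (SE 0.156, edgeR adjusted p 1.75e-05) and Grin2a by 1.29 (SE 0.196, edgeR adjusted p 2.65e-05). The calls of Grin2d (0.50, SE 0.190, edgeR adjusted p 0.0802) and Grin1 (0.21, SE 0.152, edgeR adjusted p 0.431) were lost, beside 16.2% of all genes called in interneurons with this fit.

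Sst interneurons made up 852 of 1878 GABAergic interneurons in striatum and 597 of 4441 in cortex, so the regions were also compared within Pvalb and within Sst interneurons, a comparison chosen after seeing the data. Grin2b was higher in cortex in both, by 1.19 in Pvalb (SE 0.117, adjusted p 3.70e-09 in edgeR) and 1.00 in Sst interneurons (SE 0.114, adjusted p 1.09e-07). Grin2a was higher by 0.90 in Pvalb (SE 0.148, adjusted p 2.74e-05) and 0.66 in Sst interneurons (SE 0.162, adjusted p 0.00235). Grin1 was called in Sst interneurons, where cortical pools lay at 194 to 301 CPM and striatal pools at 56.6 to 131 (log2 difference 1.05, SE 0.132, edgeR adjusted p 6.00e-07). In Pvalb interneurons it differed by 0.21 (SE 0.132, edgeR adjusted p 0.315). Grin3a, not called over all interneurons, was higher in cortical Sst interneurons by 0.59 (SE 0.115, edgeR adjusted p 2.48e-04). The call of Grin2d was lost within both subtypes, at 0.47 in Pvalb (SE 0.222, edgeR adjusted p 0.159) and 0.12 in Sst interneurons (SE 0.179, edgeR adjusted p 0.655). Of all genes, 18.2% were called in Pvalb and 31.8% in Sst interneurons. Nos1, which marks a striatal Sst type, was at 1531 CPM in striatal and 201 CPM in cortical GABAergic interneurons of all subtypes together.

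**Figure D4:**
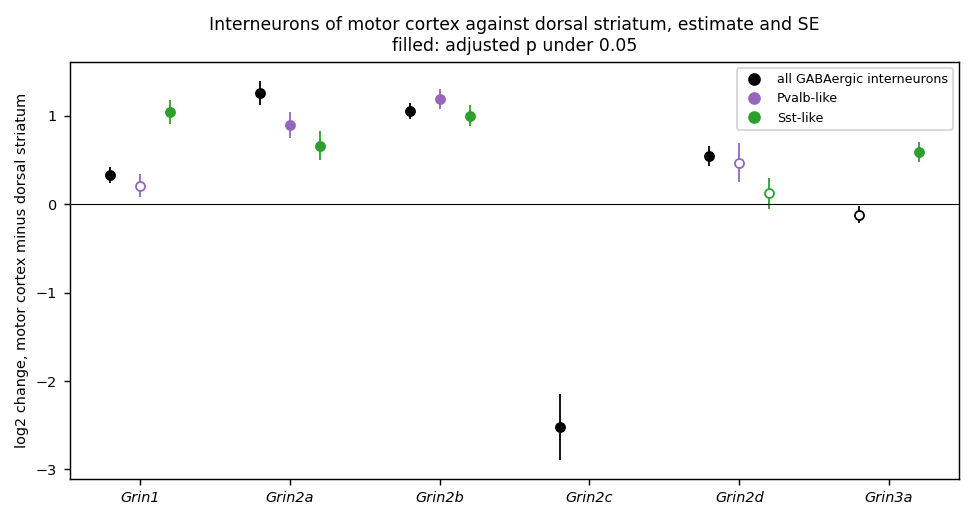
Difference between motor cortex and dorsal striatum in interneurons, as log2 change with its SE on the y axis, for all GABAergic interneurons (black), Pvalb (purple) and Sst (green), where filled points have an edgeR adjusted p under 0.05. Grin2a and Grin2b lie above 0 in all 3 groups, Grin1 at about 1 in Sst interneurons, and Grin2c at -2.52 in all interneurons together.

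Over the 7 classes found in both regions, 6 of 20 tests of members were called (11.5% of all gene tests). Besides the 4 above, Grin2c was lower in cortical interneurons by a log2 difference of -2.52 (SE 0.373, edgeR adjusted p 3.24e-05). Those levels were low, at 1.25 and 6.29 CPM, with cortical interneuron pools up to 2.02 and striatal ones from 3.73 to 10.0. Grin2c may have passed the filter on low counts through the striatal pools alone. This call is therefore a description, also in the fit with batch below. The difference was not seen in Sst interneurons, at 3.53 CPM in cortex and 3.33 in striatum. Pvalb interneurons were at 0.60 (n = 5) and 3.60 CPM, and Grin2c was not tested within either subtype. Microglia, the background class, had a median of 0.852 CPM in cortex and 1.06 in striatum. The striatal microglial mean of 5.66 was carried by late replicate 1 at 29.2, and the class B pools averaged 0.968. In cortical and striatal interneurons of early replicate 2, Grin2c was at 0.611 and 6.65 CPM and in late replicate 2 at 1.53 and 10.0, and the fit with batch gave -3.06 (edgeR adjusted p 6.39e-04). Grin2b in mural cells was lower in cortex by -2.15 (SE 0.420, edgeR adjusted p 0.0139), with cortical pools at 2.52 to 11.2 CPM and striatal pools at 7.58 to 147. Without striatal late replicate 1, the highest of them, the difference was -1.67 (edgeR adjusted p 0.0521), and without cortical late replicate 1 it was -1.60 (edgeR adjusted p 0.116). With batch in place of kit class it was -1.06 (edgeR adjusted p 1.0), so the call held in none of these 3 fits. Of all 17 alternative fits, 13 kept the call of mural Grin2b.

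Astrocytic Grin2c differed by 0.27 between cortex and striatum (SE 0.161, edgeR adjusted p 0.244) and was not called. Nor was Grin3a in oligodendrocyte precursors (0.10, SE 0.120, edgeR adjusted p 0.892) or their Grin2d (0.03, SE 0.226, edgeR adjusted p 0.996). None of these p-values shows that the levels are alike.

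Subtypes of neurons were then compared within pools. The subtypes are clusters of these same cells, found without the 6 genes but from genes that move with them, so the p-values describe these groups and do not test independent ones. In D1 and D2 spiny neurons, which express the dopamine receptors Drd1 and Drd2 and form the direct and indirect pathways, Grin2b was higher in D1 in 6 of 6 pools. The D1 and D2 levels were 617 and 558 CPM in control replicate 1, 808 and 745 in control replicate 2, 875 and 790.2 in early replicate 1, 789 and 703 in early replicate 2, 443 and 394 in late replicate 1, and 774 and 699 in late replicate 2. The log2 difference was small, at 0.11 (SE 0.0179, edgeR adjusted p 1.80e-06). Grin2a differed by 0.06 (SE 0.0265, edgeR adjusted p 0.0868) and was called only in the fit without late replicate 1 (0.08, edgeR adjusted p 0.0146). Grin1 differed by -0.04 (edgeR adjusted p 0.259). With 1 of 5 members called, 27.9% of all genes were called.

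In cortical layers, Grin2b was at 683, 834 and 882 CPM (lowest, median and highest pool) in layer 2/3 and 463, 516 and 544 in layer 6 corticothalamic neurons, with no overlap. Grin2a was at 361, 495 and 588 and 194, 305 and 375, with overlap of ranges but a higher value in layer 2/3 in 6 of 6 pools. The log2 differences were 0.57 for Grin2b (SE 0.0385, edgeR adjusted p 3.23e-21) and 0.60 for Grin2a (SE 0.0407, edgeR adjusted p 2.71e-21). Grin1 was also higher in layer 2/3 in 6 of 6 pools (means of 336.5 and 301.4 CPM), but the fitted difference, after TMM scaling, was 0.05 (edgeR adjusted p 0.296) and was not called. These 2 of 4 members stand beside 63.7% of all genes called in this contrast.

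Between Pvalb and Sst interneurons of cortex (5 pools with at least 20 cells of each), Grin3a was lower in Pvalb in 5 of 5 pools. In the order control 2, early 1, early 2, late 1 and late 2, Pvalb interneurons had 13.5, 3.78, 36.4, 5.998 and 0 CPM and Sst interneurons 434, 374, 367, 325 and 326. The log2 difference was -5.15 (SE 0.219, edgeR adjusted p 1.41e-25). Grin2a was lower by -0.52 (SE 0.133, edgeR adjusted p 0.00196), a call lost without late replicate 1 (-0.30, edgeR adjusted p 0.0682) and with DESeq2 (-0.50, adjusted p 0.0554). Grin2b differed by -0.10 (edgeR adjusted p 0.508), Grin1 by -0.03 (0.868) and Grin2d by 0.24 (0.432). Of all genes 27.6% were called.

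Training stage was the question of the study design, and no member was called in any class or subtype tested in either region. A missing call does not show that levels are alike between stages. In motor cortex 0 of 186 tests (6 members, 14 classes and subtypes where expressed, 3 contrasts) had an edgeR adjusted p under 0.05, with 4 at an unadjusted p under 0.05, and DESeq2 called 0. In dorsal striatum it was 0 of 180, with 13 at an unadjusted p under 0.05, and DESeq2 called 0. Leaving out 1 striatal pool brought calls in some fits, among them Grin2b in endothelial and mural cells and Grin1 in neuroblasts or progenitors. In such a fit a lone pool stands for its stage, and its share over all genes is not given. With all pools in the fit, calls were rare over all genes as well. In motor cortex classes, 0.026% of gene tests were called for early minus control, 0.0334% for late minus control and 0.0149% for late minus early. In its subtypes the percentages were 0, 0.00282 and 0.00188. The striatal classes had 0.0172%, 0.0475% and 0.00574%, and the striatal subtypes 0.0751%, 0.0217% and 0.00866%. Contrasts of a region share pools, so they are not independent of one another. In each region control replicate 1 and late replicate 1 share a labelled sequencing batch, as do control replicate 2 and early replicate 1. A fit with batch as a term leaves no residual degrees of freedom, so within-batch values are given without a test.

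In cortical glutamatergic neurons, Grin1 was at 239.9 and 369.5 CPM in control, 349 and 316 in early and 234 and 255 in late pools (class A first in control and late). Stages overlapped, and the class A pools were low in both. Within a batch, Grin1 was at 239.9 in control replicate 1 and 234 in late replicate 1, and at 369.5 in control replicate 2 and 349 in early replicate 1, so the trained pool was the lower one in both pairs. Late minus control, the log2 change of Grin1 was -0.26 (SE 0.156, edgeR adjusted p 0.847), the smallest adjusted p of a member in cortex. In the same order of stages, Grin2a was at 288 and 376, 333 and 387 and 239.6 and 414, and Grin2b at 596 and 583, 556 and 572 and 489 and 601. Within a batch, Grin2a and Grin2b were also lower in late replicate 1 than in control replicate 1 and in early replicate 1 than in control replicate 2. Outside these batches, late replicate 2 had the highest values of both genes. Against control, Grin2a differed by -0.14 (early) and -0.04 (late) and Grin2b by -0.11 and -0.10, none of them called.

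In spiny projection neurons, Grin2b was at 573 and 768 CPM in control, 832 and 739.7 in early and 414 and 726 in late pools. The late class A pool was the lowest, and its class B partner lay within the control and early range. Inside the batches, Grin2b was lower in late replicate 1 (414) than in control replicate 1 (573) and higher in early replicate 1 (832) than in control replicate 2 (768). Late minus control the change was -0.24 (SE 0.126, edgeR adjusted p 0.788) and early minus control -0.05. Grin2a was at 148 and 229, 281 and 260.2 and 127 and 259, with changes of 0.16 (early, SE 0.133) and 0.02 (late). Inside the batches it was lower in late replicate 1 than in its control and higher in early replicate 1 than in its control. Grin1 was at 257 and 387, 318 and 336 and 246 and 338, and its changes were -0.20 and -0.10, with the trained pool the lower one in both batches. Eccentric spiny neurons had Grin2a at 169.6 and 362 CPM in control, 488 and 438 in early and 218 and 452 in late pools. Their changes of 0.36 (early, SE 0.136, edgeR adjusted p 0.803) and 0.35 (late, SE 0.129, edgeR adjusted p 0.938) were not called. Within a batch, both trained pools were above their control, 218 against 169.6 in late and 488 against 362 in early mice.

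Outside projection neurons, Grin2c of striatal astrocytes was at 254 and 614 CPM in control, 449 and 463 in early and 196 and 495 in late pools. The fitted change from control to early was -0.45 (SE 0.180, edgeR adjusted p 0.711), while the plain mean was 456 in early and 434 in control pools, of which the latter include a class A pool and the former do not. Within a batch, both trained pools were below their control, 196 against 254 in late and 449 against 614 in early mice. In cortical astrocytes Grin2c was at 478 and 511, 554 and 466 and 372 and 502, with differences of -0.02 in both contrasts with control. Interneuron Grin2d differed by -0.06 (early) and -0.11 (late) in cortex and by -0.31 (SE 0.234) and 0.04 in striatum. Grin3a of oligodendrocyte precursors differed from control by -0.26 and -0.09 in cortex and 0.23 and 0.13 in striatum. The smallest adjusted p of all was that of Grin2b in striatal mural cells, late minus control (1.56, edgeR adjusted p 0.0788). It was called at 1.81 without control replicate 2 and at 1.52 without early replicate 1 or 2. Its pools were at 38.2 and 12.7 CPM in control, 17.5 and 7.58 in early and 147 and 25.6 in late mice, the highest being late replicate 1.

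**Figure D5:**
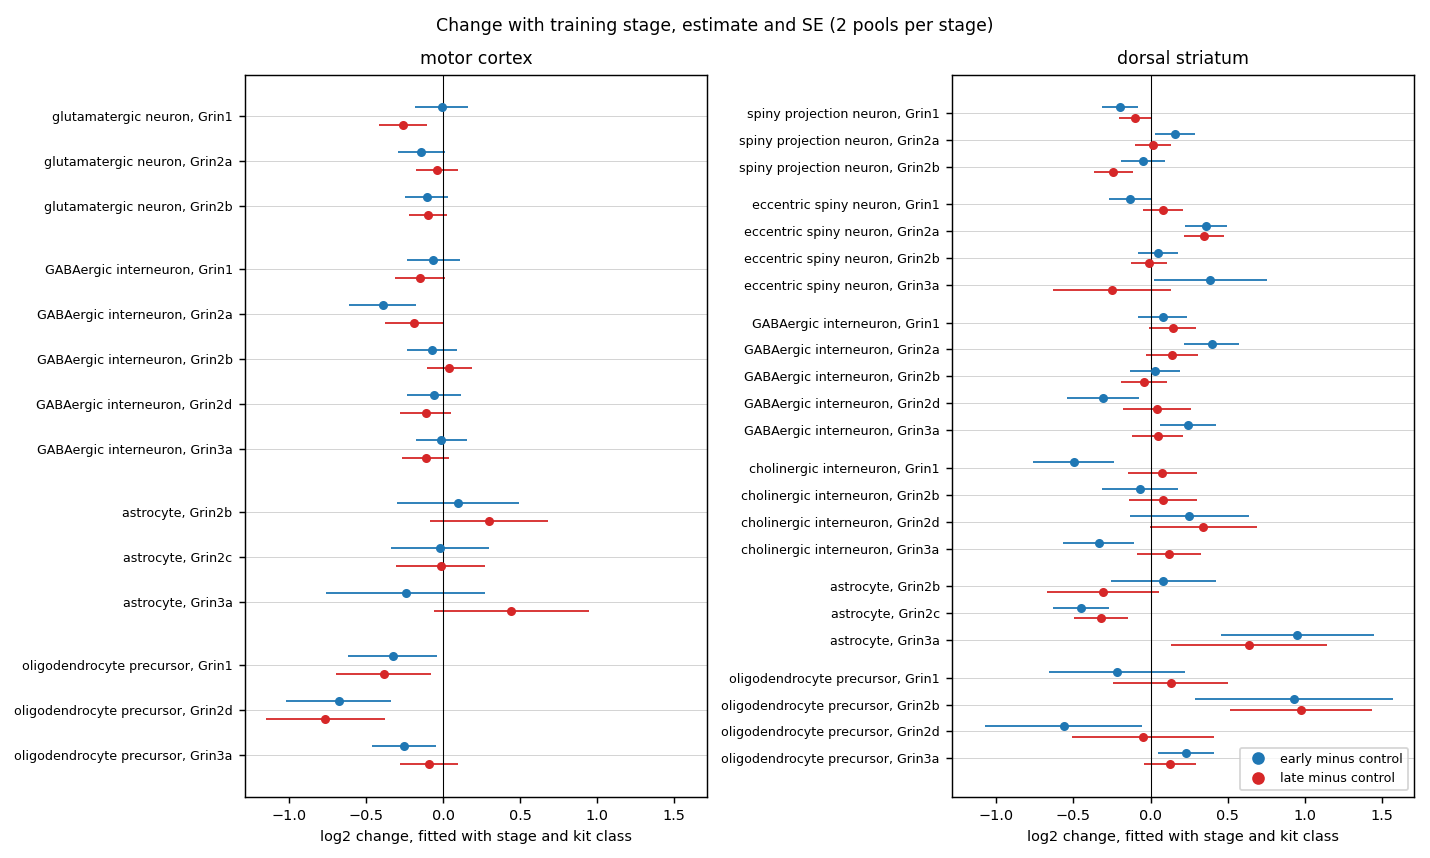
Fitted log2 change with SE of early (blue) and late (red) minus control pools, for each member with at least 10 CPM in a stage of a class, in motor cortex (left) and dorsal striatum (right). No estimate has an edgeR adjusted p under 0.05, the estimates of glutamatergic and spiny projection neurons lie between -0.26 and 0.16, and the widest bars belong to non-neuronal rows.

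Contralateral and ipsilateral hemispheres (with respect to the reaching limb) were set against each other inside each trained pool. Of 51 tests of members, 0 were called by edgeR and by DESeq2, with 2 at an unadjusted p under 0.05, beside 0.0803% of all gene tests in motor cortex and 0.00519% in dorsal striatum. Those 2 were Grin3a in cortical GABAergic interneurons (0.19 higher contralaterally, SE 0.0668, edgeR adjusted p 0.583) and Grin2a in the same cells (-0.14, SE 0.0610, edgeR adjusted p 0.872).

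Neurons that carried the reporter were compared with those that did not within each pool. A cell counted as positive with at least 1 UMI of the reporter's 3' element. In cortical glutamatergic neurons Grin1 was lower in positive cells in 6 of 6 pools, with means of 271 against 302 CPM (log2 difference -0.14, SE 0.0237, edgeR adjusted p 1.12e-05). Grin2a was lower in 6 of 6 pools as well (320.3 against 345 CPM, -0.08, SE 0.0235, edgeR adjusted p 0.0199), but the call was lost with DESeq2 (adjusted p 0.103), with at least 2 reporter UMIs (-0.04, edgeR adjusted p 0.753) and without control replicate 2, early replicate 2 or late replicate 2 (edgeR adjusted p 0.0685 to 0.120). Grin2b differed by 0.03 (edgeR adjusted p 0.423). Grin3a, at 5.36 CPM in positive and 6.53 in negative cells, was higher in positive cells in 1 of 6 pools. It differed by -0.24 (SE 0.118, edgeR adjusted p 0.256) and was called in 1 alternative fit, at -0.86. Of all genes, 7.18% were called in cortex. Positive cells were deeper (pool medians 6388 to 15551.5 UMIs against 5111 to 11880 in negative cells), and in thinned cells the reporter was found in 2.21 to 5.65% of glutamatergic neurons and 1.54 to 3.62% of microglia. The fit took all glutamatergic subtypes together, and Grin1 ran from 225 CPM in layer 5 near-projecting to 336.5 in layer 2/3 neurons. The part of subtype mix, of depth and of free reporter RNA in the Grin1 and Grin2a differences was not tested.

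In spiny projection neurons the reporter was seen in 7.498 to 15.5% of thinned cells against 1.504 to 4.51% of microglia, and 0.414% of all genes were called. Grin1 (0.00), Grin2a (0.00) and Grin2b (-0.02, edgeR adjusted p 0.927) did not pass the test there. Whether the cortical and striatal differences differ from each other was not tested.

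Scaffold and signalling partners of the receptor (34 genes, among them the Dlg, Shank and Homer scaffolds and Camk2a) were followed in the same fits. Between regions, 16 tests were higher in cortex and 10 lower of 146 (17.8%, beside 11.5% of all). In GABAergic interneurons 13 of 34 were higher and 4 lower, beside 34.1% of all genes called there. The other 3 higher and 6 lower calls lay in non-neuronal classes and were singled out after their values were seen. Of the 3 higher ones, 2 lay in astrocytes and 1 in microglia. Of the 6 lower ones, 4 were Ptpn5, a tyrosine phosphatase abundant in striatal neurons, in astrocytes, endothelial cells, microglia and mural cells, 1 was Akap5 in mural cells and 1 Camk2b in oligodendrocyte precursors. The part of free RNA in these calls was not tested. In GABAergic interneurons the calls with the smallest adjusted p were Rasgrf2, an exchange factor for Ras (222 CPM in cortex against 37.4 in striatum, log2 difference 2.45), Homer2, a postsynaptic scaffold (159.8 in cortex, log2 difference 2.04), and Nos1, the nitric oxide synthase bound to the receptor complex (-3.09). Between training stages 1 test of 452 was called in striatum (Camk2b in mural cells, late minus control, 1.97, edgeR adjusted p 0.0134) and 1 of 459 in cortex (Ppp3ca in fibroblasts, late minus control, -1.92, edgeR adjusted p 0.0247), beside 0.0382% and 0.0160% of all gene tests in that contrast. Each came from late minus control, and the other contrasts had 0. Between reporter-positive and negative cells, 1 was higher and 3 lower of 67 (5.97%, beside 4.05% of all), and between hemispheres 0 of 380 (0.0361% of all).

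In subtype contrasts the partners are descriptions, since their counts helped to form the clusters. Of 33 partners, 24 were higher and 7 lower in layer 2/3 than in layer 6 corticothalamic neurons (93.9%, beside 63.7% of all), with a median log2 difference of 0.43 beside -0.03 over all genes. Rasgrf2, a layer 2/3 marker used to name the cells, differed most. Between D1 and D2 neurons 8 were higher and 9 lower of 33 (51.5%, beside 27.9% of all), with Shank1 (1.57) higher in D1. Between Pvalb and Sst interneurons 5 were higher and 6 lower of 30 (36.7%, beside 27.6% of all), with Nos1 (-5.66, itself an Sst marker) and Neto1 (-1.95), a receptor-associated protein, lower in Pvalb.

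Genes that make, move or break down the co-agonists D-serine and glycine (16 genes) were followed as well, also in astrocytes, the cells that carry Grin2c. Between regions, over all shared classes, 5 tests were higher in cortex and 4 lower of 49 (18.4%, beside 11.5% of all). In astrocytes 2 were higher, 3 were lower and the other 7 of 12 did not pass, beside 1206 higher and 1325 lower of all 10016 genes tested. With the labelled batch in place of kit class, 277 genes were higher and 228 lower of 10509 in astrocytes (4.81%). The list genes were not followed in that fit. Phgdh, the first enzyme of serine synthesis, was at 287.5 CPM in cortical and 696.6 in striatal astrocytes (log2 difference -1.32, SE 0.158, edgeR adjusted p 2.36e-07). In GABAergic interneurons Psat1, the middle enzyme of serine synthesis, was at 37.2 CPM in cortex and 9.34 in striatum (1.88, edgeR adjusted p 3.08e-07). The following genes of astrocytes were chosen after their values were seen. Psph, the last enzyme of that path, was at 123 and 265 CPM (-1.15, edgeR adjusted p 3.49e-06). The transporters Slc7a10 (795 and 348 CPM; 1.23, edgeR adjusted p 2.20e-06) and Slc1a4 (274 and 131 CPM; 1.02, edgeR adjusted p 1.96e-05), which both carry D-serine and related amino acids, were higher in cortex. Gldc, of the glycine cleavage system, was lower in cortex by -0.44 (edgeR adjusted p 0.0301). In the stage contrasts 0 of 130 tests in cortex and 0 of 142 in striatum were called for each contrast, between hemispheres 0 of 127 and by reporter 0 of 19. Between subtypes, the counts were 3 higher and 2 lower of 8 in layer 2/3 against layer 6 corticothalamic neurons (62.5%, beside 63.7% of all) and 3 higher of 9 in D1 against D2 neurons (33.3%, beside 27.9% of all), both near the share over all genes. In Pvalb against Sst interneurons 5 of 9 were higher (55.6%, beside 27.6% of all), among them Phgdh (2.66).

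The genes whose levels ran most like those of each member were found over 30 class or subtype profiles, among 13334 genes, by Pearson's correlation of mean log2(CPM + 1). The profiles share libraries and depth, so the correlations are descriptions. Grin1 ran closest to Sptbn4 (0.984), Pcnx2 (0.978) and Atp6v1e1 (0.976), and Grin2a to Gas7 (0.955), Npas4 (0.945) and Dlgap2 (0.943). Grin2b was nearest to Thy1 (0.971), Rbfox3 (0.965) and Carmil2 (0.960), the first 2 being common neuronal markers. Grin2c was nearest to Cyp4f14 (0.973), Myom3 (0.968) and Rpe65 (0.967), each highest in astrocytes of 1 of the regions. Grin2d had looser matches in Apoa2 (0.882), Ankrd55 (0.860) and AF529169 (0.854), as did Grin3a in Siah3 (0.878), Lrrc75b (0.858) and Krt1 (0.857). Among the members, Grin1 ran with Grin2b (0.934) and Grin2a (0.903), and Grin2d with Grin3a (0.708), while Grin2c correlated with none above 0.178.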

How the data were processed

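Single-cell 3' RNA was measured in 12 pools of 2 mice, as described above. The authors deposited raw UMI counts per gene and cell barcode, made with Cell Ranger 3.1.0 and GRCm38 (mm10) per the submitters' processing notes, while the file headers name software version 3.0.2. Annotation release and strand setting are not given in the sources used here, and gene positions come from GENCODE M21. Papain digestion and dead cell removal, per the labels' protocols, can change which cells and RNAs survive.

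Barcodes with fewer than 500 genes, fewer than 1000 UMIs or over 20% of mitochondrial UMIs were dropped, and 5103 presumed doublets were removed (Scrublet in scanpy 1.11.5, 0.8% per 1000 barcodes), which left 98612 cells from 127901 barcodes. Cells were clustered by region (2000 variable genes, 40 principal components, 20 neighbours, leidenalg 0.10.2, resolution 1.5, then 1.0 in a second round within classes) and named by markers. Unnamed clusters held 4.32% of the cells. The kit class was called from shared barcodes (2226 shared barcodes, or 1.34 per 1000000 pairs, within class A, 715 or 0.263 within class B, 112 or 0.0236 between). UMIs were summed per pool and class with at least 20 cells in every pool used, and CPM is relative to all UMIs of that sum. Shares of cells with a UMI were taken after thinning to 1000 UMIs, which every kept cell had. Intervals cover counting error only.

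Sums were tested with edgeR 4.0.16 (TMM, filterByExpr, quasi-likelihood F test) over all genes, with Benjamini-Hochberg adjustment and a call at an adjusted p under 0.05. Stage and region fits had kit class as a covariate (stage fits keep 2 residual degrees of freedom among 6 pools). Hemisphere, reporter and subtype fits had the pool as a block. Alternatives were DESeq2 1.42.0, RLE factors, no filter, stricter cells (1000 genes, 2000 UMIs, 10%), no kit class, doublets kept, at least 50 cells, another reporter threshold, subtraction of the microglial level, means over cells, and each pool left out. The region fits within Pvalb and Sst interneurons, and those with the labelled batch in place of kit class, were added after seeing the data. The code was tested on simulated data. The text names all members, the 3 genes most like each, and up to 5 list genes per comparison with the smallest adjusted p over both lists. Of these, 1 list gene is not reported here. Other list genes named were chosen after their values were seen. Members and gene lists were chosen with earlier results of these data known.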

Additional observations from a re-analysis of the deposited data

Results flagged for a closer look

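In 39 sets of 6 pools that were checked, each with a mean of at least 20 CPM, 2 were flagged. In these, the gap of a pool to its nearest neighbour, divided by the range, passed Dixon's critical value for 6 samples. Chance flags about 1 in 20 such sets. Striatal mural Grin2b and endothelial Grin1 (means 41.5 and 28.3 CPM), with late replicate 1 far above the other pools, were not among the 2. Both would pass the rule as worded, and why they were not flagged is not given here. The flags therefore do not list every pool that stood apart, and their number is not to be read against the chance rate. Grin1 in striatal oligodendrocyte precursors was at 39.43 CPM in late replicate 1, against 14.5 to 23.1 in the other 5 pools. The same pool also had the highest Grin1 in endothelial and mural cells (111 and 95.4 CPM). Grin3a in eccentric spiny neurons was at 39.4 CPM in early replicate 1, against 17.0 to 23.7 in the others.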

How the results depend on the processing

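Of the values and counts that answer a comparison, 187 recomputed ones were scored as unchanged and 14 as moved. A count of called members was scored as unchanged within a fixed ratio of the main count, even where single members gained or lost a call. A described value was scored as unchanged when it moved by less than the replicate spread. Counts of called members moved as follows. Between D1 and D2 neurons 2 were called without striatal late replicate 1 (leaving out 1 pool gave 1 to 2). Between Pvalb and Sst interneurons DESeq2 called 1, as did the fit without cortical late replicate 1 (range 1 to 2). By reporter, DESeq2 called 1 and leaving out 1 pool gave 1 to 2. Between striatal stages, the fit with no filter on low counts called 2 of 321. Its share over all genes is not given, so these calls are not read as a result. Leaving out 1 pool brought calls in some fits, among them Grin2b in endothelial and mural cells and Grin1 in neuroblasts or progenitors. The log2 changes of these ran from 1.52 to 5.58. In the fits without 1 pool, a lone pool stands for its stage and is assumed to vary like the others. The share over all genes in those fits is not given either. Leaving out 1 pool gave 0 calls in every fit of the cortical stages and of the hemispheres, 2 between layers and 5 to 8 between regions. With the labelled batch in place of kit class, a fit chosen after seeing the data, 3 of 23 tests of members were called between regions against 6 of 20. All 3 lay in GABAergic interneurons, where 16.2% of all genes were called in that fit. In the other classes 0.0835% to 4.81% of all genes were called, and in the fits with kit class 11.5% of all gene tests. Grin2c in cortical astrocytes was 375.9 CPM with the stricter cell filter. Grin2b in striatal endothelial cells, early minus control, reversed from -0.12 to 4.19 without control replicate 2 (edgeR adjusted p 0.0481). The cause was not tested. Of the single members, 168 recomputed values kept their call, 17 lost it and 13 gained one. Grin1 in interneurons, cortex minus striatum, lost its call without kit class (0.33, edgeR adjusted p 0.106), as did mural Grin2b (-2.20, 0.312). No paired analysis was possible with replicate numbers because the labels give the mouse pools no replicate numbers, and the numbers used here follow accession order. Hemispheres, reporter classes and subtypes were compared within pools.

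Depth limits Grin2d most: with 2890 UMIs in all, its levels in classes of few cells rest on few counts. The stage comparisons rest on 2 pools a stage, 1 of them of class A in control and late.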
